A study of Mus musculus with 8 samples.

Results

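Mesenchymal stromal cells (MSCs) of the marrow are recognized by a small set of genes, most of them for proteins on the cell surface. The 9 genes described here were chosen by name for that use, namely Thy1, Eng, Pdgfra, Pdgfrb, Ly6a, Lepr, Alcam, Mcam and Nes. Of these, 8 had a row among the 13387 genes of the deposited count table, and Thy1 was not analysed here. The table covers megakaryocytes (MKs, the marrow cells that release platelets) in 4 libraries of MKs cultured alone and 4 libraries of MKs cocultured with MSCs, and the question put to it was how much of each stromal marker each library held.

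All cells were primary cells of wild-type C57BL/6 mice, and both groups were cultured for 18 hours. MKs were enriched from marrow with beads against CD41, which is not a purification to a single cell type, and MSCs were sorted as CD45-, Ter119-, CD31-, CD51+ and CD140a+ cells. CD140a is the protein of Pdgfra and CD51 that of Itgav, so these genes helped to choose the MSCs, and their presence in MSCs is not a result. According to the methods, cells in suspension were taken off the adherent MSCs by hand, and each library holds several pooled wells. The labels describe the sequenced cells as MKs separated from platelets, while the paper describes platelets and counts its RNA-Seq replicates in mice. The labels of the libraries do not say which animals or cultures they came from. The p-values below therefore weigh group differences against the spread between these libraries only, and cannot be extended to animals.

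PDGFRα and PDGFRβ are receptor tyrosine kinases that bind platelet-derived growth factors, which platelets and MKs carry in their granules. The leptin receptor marks perivascular stromal cells that make factors for hematopoietic stem cells. Endoglin is a coreceptor for TGF-β and BMP ligands on endothelium and stroma. THY1 and Sca-1, the product of Ly6a, are held in the membrane by a lipid anchor, and Sca-1 is also found on hematopoietic stem cells, endothelium and some lymphocytes. ALCAM and MCAM are adhesion molecules of the immunoglobulin superfamily that are shared by stromal, vascular and some blood cells. Nestin, the product of Nes, is an intermediate filament protein inside the cell and is counted among these markers only because nestin-expressing cells form part of the stroma.

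Library totals ran from 4939874 to 9272984 counts in MKs cultured alone and from 5193949 to 12523616 in cocultures, and 3 counts amount to 0.283 to 0.660 CPM, which are counts set to a common library size with edgeR's TMM factors. Replicate 3 of the cocultures stood apart, with 10735 genes detected against 13104 to 13193 in the other cocultures, and 1012 genes without a count although each of the other libraries had 10 or more. Results that rest on it are therefore given with and without it. Leaving it out ended none of the 65 calls made by edgeR among the markers and the gene lists below. The 15 MK and platelet markers had a mean log2(CPM + 1) of 5.69 to 5.95 in MKs cultured alone and 4.65 to 5.43 in cocultures. Replicate 3 of the cocultures had the lowest mean, but its markers went both ways. It held 0 counts of Gp6 and 1 count each of Gp1ba and Gp9. The same library held more Pf4 (1595 CPM), Gp1bb, Gp5, Clec1b, Treml1 and Tubb1 (38.7 CPM) than any other library. Reads carry no molecular identifiers, so intervals and floors cover counting error only.

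In the cocultures 2 of the 8 markers rose, Pdgfrb and Ly6a, and no marker fell. A gene was called when edgeR's quasi-likelihood test gave an adjusted p of at most 0.05 and a fold change of at least 2, and when 1 or both group means reached 1 CPM. Only 5 of the 8 markers passed the filter on low counts and were tested (Eng, Pdgfrb, Ly6a, Alcam and Mcam), and 2 of these 5 were called higher, where 13.2% of the 11722 genes tested were. None was called lower, where 7.31% of all genes were, and none had a negative fold change with an unadjusted p under 0.05. DESeq2 also called 2 of the 5 higher and 0 lower, where it called 1857 of the 11722 genes higher and 1259 lower. Pdgfra, Nes and Lepr had too few counts in too many libraries for the filter, and were fitted with all genes kept. In that fit 4 of the 8 markers were called higher and 0 lower, against 13.5% and 6.66% of all 13387 genes. Pdgfra, Nes and Lepr had means under 1 CPM in MKs cultured alone, so this fit could not call them lower. At an unadjusted p under 0.05, 5 fold changes were positive and 0 negative, and no share of all genes was taken at that threshold.

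Without replicate 3 of the cocultures, 7 markers passed the filter, and 5 of them were called higher (Pdgfra, Nes, Pdgfrb, Ly6a and Alcam), where 20.6% of 12267 genes were. None was called lower, where 15.4% of genes were, and 6 positive and 0 negative fold changes had an unadjusted p under 0.05. Pdgfra and Nes passed the filter only through their high counts in cocultures, so this fit could call them higher but not lower. The same holds for other genes below that were at or near 0 in all MK-alone libraries. Of the 8 markers, Pdgfrb alone had all cocultures above all libraries of MKs cultured alone, a pattern that 17.8% of all genes had. Without that replicate 6 of the 8 markers had it (Pdgfra, Pdgfrb, Ly6a, Lepr, Alcam and Nes), against 30.3% of all genes. No marker was lower in every coculture, with or without the replicate, a pattern that 19.4% and 24.1% of all genes had. Pdgfra, Nes and Lepr could not have shown it, since each had 0 counts in a library of MKs cultured alone.

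**Figure D1:**
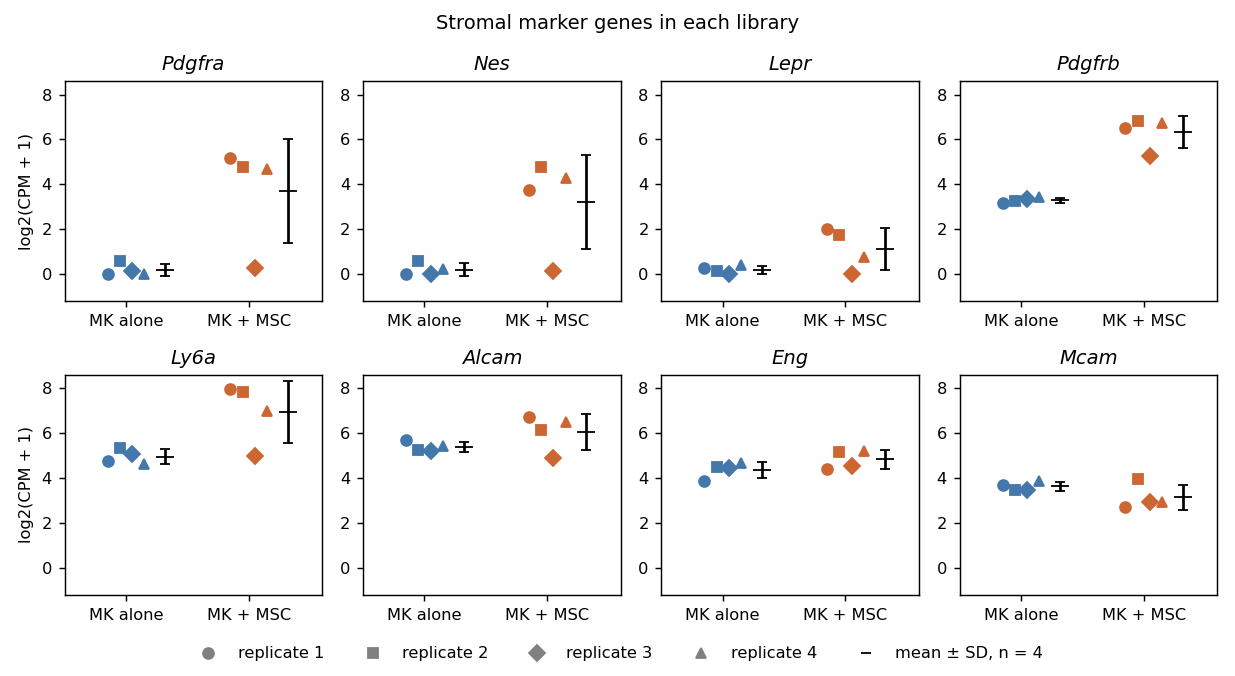
Each panel shows 1 stromal marker gene as log2(CPM + 1) on the y axis, with MKs cultured alone and MKs cocultured with MSCs on the x axis, a symbol for each replicate and the mean with its SD (n = 4). Pdgfra, Nes and Lepr lie at or near 0 in all MK-alone libraries and in replicate 3 of the cocultures, whereas Pdgfrb and Ly6a have counts in all 8 libraries.

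Pdgfrb, the receptor for PDGF-B and a marker of stromal cells and pericytes, lies on mouse chr18:61045150-61085061 (GRCm38, plus strand). It stood at 7.92, 8.63, 9.17 and 9.73 CPM in replicates 1 to 4 of MKs cultured alone, and at 88.9, 110.6, 38.0 and 106.3 CPM in replicates 1 to 4 of the cocultures. The lowest coculture, replicate 3, was still above every library of MKs cultured alone, and the other 3 lay close together. The mean was 8.86 ± 0.773 CPM (SD, n = 4) alone and 85.9 ± 33.3 CPM (SD, n = 4) in cocultures. The log2 fold change was 3.27 ± 0.38 (SE, edgeR adjusted p = 0.000396), and 3.50 ± 0.19 (adjusted p = 2.40e-10) without replicate 3.

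Pdgfra encodes the receptor whose protein, CD140a, was used to sort the MSCs, and lies on chr5:75152292-75198215 (plus strand). MKs cultured alone held 0, 5, 1 and 0 counts of it, at most 0.513 CPM. Replicates 1, 2 and 4 of the cocultures held 367, 204 and 143 counts (34.7, 26.5 and 24.7 CPM), and replicate 3 held 2 counts (0.209 CPM). The high cocultures thus stood far above all MK-alone libraries, and replicate 3 lay within the range of MKs cultured alone. Summed over libraries, 716 counts in cocultures against 6 in MKs cultured alone gave a ratio of 104.6 per unit of depth (exact 95% interval 47.8 to 285.9), and 145.8 (66.7 to 398.7) without replicate 3. These intervals, and those for Nes and Lepr below, cover counting error only and leave out the spread between libraries. With all genes kept, edgeR gave a log2 fold change of 6.75 ± 1.54 (SE, adjusted p = 0.0148), and this call was lost without replicate 1 (adjusted p = 0.0525) or replicate 3 (adjusted p = 0.0551) of MKs cultured alone. It was also lost with the replicate number as a block (edgeR adjusted p = 0.0793). Without replicate 3 of the cocultures the gene passed the filter, through its high cocultures alone, with 7.04 ± 0.48 (adjusted p = 3.42e-09).

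Nes had the same arrangement of libraries as Pdgfra. The gene lies on chr3:87971078-87980451 (plus strand), and MKs cultured alone held 0, 5, 0 and 1 counts of it. Replicates 1, 2 and 4 of the cocultures held 131, 201 and 106 counts (12.4, 26.1 and 18.3 CPM), and replicate 3 held 1 count (0.104 CPM). The order of the high cocultures differed between both genes, since replicate 1 was highest for Pdgfra and replicate 2 for Nes. The summed counts, 439 against 6, gave a ratio of 64.1 (exact 95% interval 29.2 to 175.7), and 89.4 (40.8 to 245.1) without replicate 3. With all genes kept, edgeR gave a log2 fold change of 6.12 ± 1.58 (SE, adjusted p = 0.0248). This call was lost without replicate 1, 3 or 4 of MKs cultured alone (edgeR adjusted p = 0.0780, 0.0719 and 0.0797) and without replicate 2 or 4 of the cocultures (0.0621 and 0.0566). The log2 fold change was 6.43 ± 0.57 (adjusted p = 7.33e-08) without replicate 3 of the cocultures, where the gene passed the filter through its high cocultures alone.

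The start regions of Pdgfra and Nes are shown because these 2 genes were at or near 0 in the same 5 libraries and high in the same 3. Entries for 6 of the 9 markers were taken from the RefSeq promoter table (GRCm38.p6, 250 bases before to 50 after the start). The other markers were not examined in it, so this is not a count of all entries it held. Capitals mark GGGCGG, the core of a GC box, or its reverse complement CCGCCC. The windows are chr5:75152001-75152300 for Pdgfra and chr3:87970843-87971142 for Nes, both on the plus strand.
Pdgfra: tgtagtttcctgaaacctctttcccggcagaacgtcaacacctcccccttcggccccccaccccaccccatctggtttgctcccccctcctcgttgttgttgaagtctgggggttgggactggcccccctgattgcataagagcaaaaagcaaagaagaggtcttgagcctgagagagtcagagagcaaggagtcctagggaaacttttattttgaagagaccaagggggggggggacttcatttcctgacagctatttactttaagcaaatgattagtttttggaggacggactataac
Nes: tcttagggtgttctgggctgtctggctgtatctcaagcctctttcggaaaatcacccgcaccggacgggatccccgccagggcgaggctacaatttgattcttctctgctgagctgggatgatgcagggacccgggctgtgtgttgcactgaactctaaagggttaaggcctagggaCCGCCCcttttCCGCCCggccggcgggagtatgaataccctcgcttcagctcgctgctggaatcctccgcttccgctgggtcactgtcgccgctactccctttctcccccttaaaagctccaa
Pdgfra held no such match and Nes held 2 within this window, and 35.7% of 32851 promoters of 300 bases hold at least 1 on either strand. Neither window held TATAAA, found in 13.6% of promoters, or CCAAT, found in 37.4%, on either strand. The windows differed in CpG number, with 5 for Pdgfra and 18 for Nes, where the median promoter had 7. A match or its absence describes only these letters.

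Lepr, the leptin receptor, lies on chr4:101717404-101815352 (plus strand) and was the lowest of the markers in cocultures for its length. MKs cultured alone held 1, 1, 0 and 2 counts, and the cocultures held 32, 18, 0 and 4 counts in replicates 1 to 4. At 3.02 and 2.34 CPM, replicates 1 and 2 lay above all others, and replicate 4 at 0.691 CPM was close to the level of 3 counts. The summed counts of 54 against 4 gave a ratio of 11.8 (exact 95% interval 4.36 to 45.0), and 16.5 (6.10 to 62.9) without replicate 3. The log2 fold change with all genes kept was 3.20 ± 1.42 (SE, edgeR adjusted p = 0.134), which was not called. It passed without replicate 3 of the cocultures, at 3.71 with an adjusted p of 0.00207, still with all genes kept.

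Ly6a, the gene of Sca-1, lies on chr15:74994877-74998031 (minus strand) in a cluster of similar Ly6 genes, so reads shared with its neighbors cannot be judged from the table. It was measured in all libraries, at 26.0, 39.4, 33.3 and 23.7 CPM in MKs cultured alone. The cocultures held 247.6, 228.8, 30.4 and 126.7 CPM in replicates 1 to 4. Replicate 3 lay within the range of MKs cultured alone, the other cocultures lay above it, and replicate 4 was well below replicates 1 and 2. The mean was 30.6 ± 7.18 CPM (SD, n = 4) alone and 158.4 ± 100.5 CPM (SD, n = 4) in cocultures, or 201.0 ± 65.0 CPM (SD, n = 3) without replicate 3. The log2 fold change was 2.37 ± 0.57 (SE, edgeR adjusted p = 0.0174), and 2.69 ± 0.24 (adjusted p = 8.41e-08) without replicate 3. This call was lost when replicate 1, 3 or 4 of MKs cultured alone was left out (edgeR adjusted p = 0.0618, 0.0526 and 0.0607). It was also lost with the replicate number as a block (edgeR adjusted p = 0.0908).

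Alcam encodes an adhesion molecule that binds CD6 and itself, and lies on chr16:52248996-52454074 (minus strand). MKs cultured alone held 51.2, 37.2, 36.1 and 42.6 CPM, so that the gene was well expressed without MSCs. In cocultures it stood at 103.1, 70.0, 29.1 and 88.5 CPM, with replicate 3 below every MK-alone library and the others above. The log2 fold change of 0.80 ± 0.38 (SE, edgeR adjusted p = 0.162) was not called. Without replicate 3 it was called higher, at 1.05 ± 0.19 (adjusted p = 0.000224).

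Eng, the gene of endoglin (chr2:32646595-32682669, plus strand), overlapped between the groups. MKs cultured alone held 13.6, 21.9, 21.2 and 24.3 CPM and the cocultures 20.5, 35.4, 22.2 and 36.3 CPM. The log2 fold change was 0.50 ± 0.35 (SE, edgeR adjusted p = 0.352), or 0.57 ± 0.25 (adjusted p = 0.0667) without replicate 3, and it was called in neither. Replicate 3 of the cocultures did not stand apart here, since replicate 1 was lower.

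Mcam, the gene of the adhesion molecule CD146 (chr9:44134469-44142727, plus strand), had its lowest values in cocultures. The level was 12.1, 10.1, 10.3 and 13.8 CPM in MKs cultured alone and 5.67, 14.4, 6.67 and 6.74 CPM in cocultures. Replicate 2 of the cocultures was the highest library of all and the other 3 were below every MK-alone library, so the groups overlapped. The log2 fold change was -0.46 ± 0.48 (SE, edgeR adjusted p = 0.536), and -0.39 ± 0.33 (adjusted p = 0.333) without replicate 3.

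**Figure D2:**
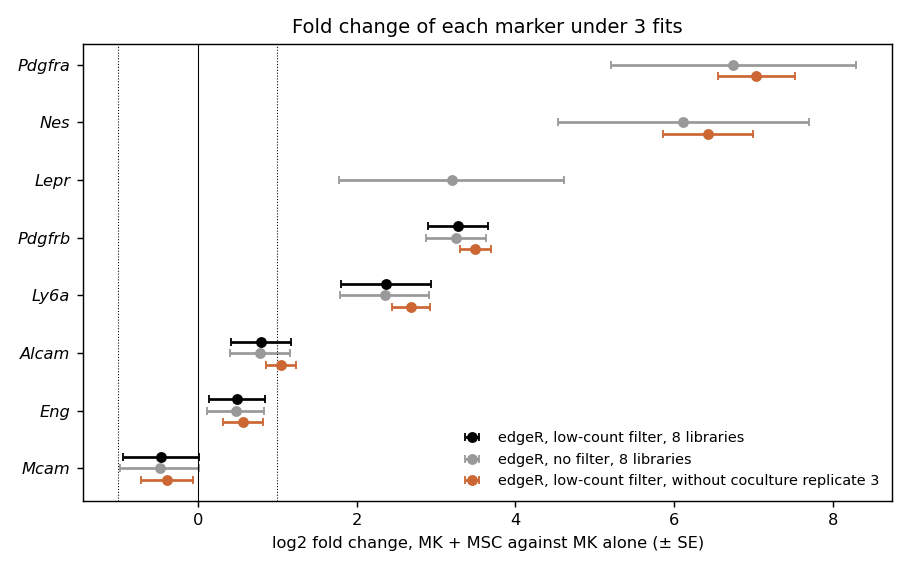
Log2 fold changes of cocultures against MKs cultured alone (x axis, with SE) are shown for each stromal marker (y axis) under 3 edgeR fits, with the filter on low counts, with all genes kept and without replicate 3 of the cocultures. Pdgfra and Nes have the highest estimates with the widest errors when all libraries are kept, and Mcam is the only marker below 0 in all 3 fits.

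Levels of different genes were compared as CPM per kilobase of exon, which takes the length of each gene into account. In MKs cultured alone the mean level was 25.4 for Ly6a (19.6 to 32.7 over libraries), 5.87 for Alcam (5.07 to 7.20), 5.01 for Eng (3.37 to 6.01), 3.45 for Mcam (3.0 to 4.11) and 1.62 for Pdgfrb (1.45 to 1.78). The ranges of Alcam and Eng overlapped, as did those of Eng and Mcam, while Ly6a stood above and Pdgfrb below the rest. Nes, Lepr and Pdgfra were at 0.0263, 0.0229 and 0.0156, from at most 5 counts in any library, and their order was not resolved at this depth.

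Replicates 1, 2 and 4 of the cocultures had another order. Ly6a remained first, at 166.8 CPM per kilobase (105.1 to 205.4), and Pdgfrb came next at 18.6 (16.2 to 20.2), above Alcam at 12.2 (9.82 to 14.5) and Eng at 7.59 (5.06 to 8.97). Nes at 2.95 (1.93 to 4.07), Pdgfra at 2.86 (2.47 to 3.46) and Mcam at 2.67 (1.69 to 4.30) had overlapping ranges, and Lepr was lowest at 0.286 (0.0981 to 0.429). Pdgfrb thus moved from below Alcam, Eng and Mcam to above them. Over all 4 cocultures the means were 131.4 for Ly6a, 15.7 for Pdgfrb, 10.2 for Alcam, 7.07 for Eng, 2.50 for Mcam, 2.22 for Nes, 2.15 for Pdgfra and 0.215 for Lepr.

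The markers did not keep a fixed proportion to each other across the cocultures. For each 100 counts of Pdgfrb, replicates 1 to 4 held 39.0, 23.9, 0.549 and 23.3 counts of Pdgfra. The corresponding counts were 13.9, 23.6, 0.275 and 17.2 for Nes, and 278.5, 206.9, 80.2 and 119.2 for Ly6a. Replicate 3 was lowest for all 3 genes, by far for Pdgfra and Nes and less so for Ly6a. At the pooled proportions of the other cocultures, its 364 Pdgfrb counts would go with 107.9 counts of Pdgfra, 66.2 of Nes, 8.16 of Lepr and 773.5 of Ly6a, where 2, 1, 0 and 292 were found. The counts of Pdgfrb in that library are thus not matched by those of the sort marker Pdgfra.

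**Figure D3:**
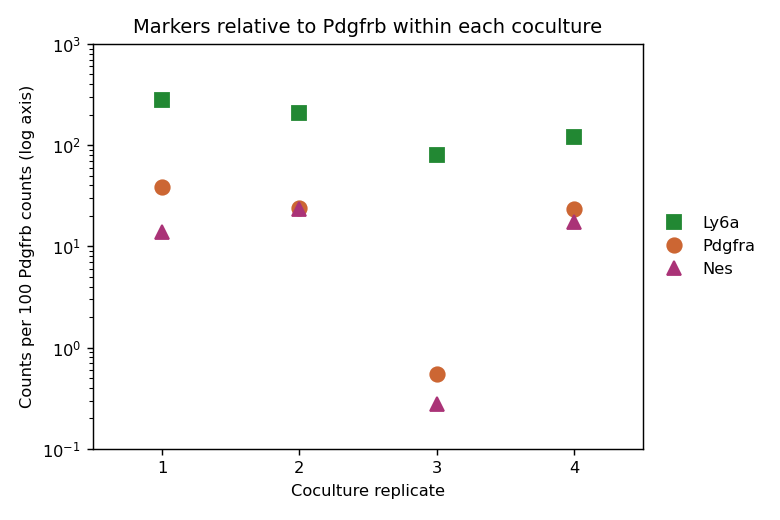
The counts of Ly6a, Pdgfra and Nes per 100 counts of Pdgfrb (y axis, log scale) are shown for each coculture replicate (x axis). Pdgfra and Nes lie between 13.9 and 39.0 in replicates 1, 2 and 4 and below 1 in replicate 3, whereas Ly6a falls no lower than 80.2.

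Against stromal matrix genes, Pdgfrb had the steadiest proportion of the 8 markers, by the ratio of its highest to its lowest coculture. For each 1000 counts of the stromal matrix list, replicates 1 to 4 of the cocultures held 30.7, 28.8, 34.1 and 40.6 counts of Pdgfrb. Pdgfra held 12.0, 6.89, 0.187 and 9.44, and Ly6a held 85.5, 59.5, 27.4 and 48.4. The matrix list itself had 30664, 29617, 10676 and 15146 counts in these libraries. Replicate 3 was therefore low for Pdgfra and Ly6a beside its matrix counts as well, but not for Pdgfrb. In bulk RNA, a smaller number of cells of a type and less RNA for each cell cannot be told apart. Replicate 3 also had 0 counts of 1012 genes that held at least 10 in every other library. Among them was Il6st, with 71 to 190 counts in MKs cultured alone. Whether the absence of such genes from that library bears on these proportions was not tested.

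Of the other genes of the sort gate, Itgav (CD51, the αV integrin) rose from 40.4 ± 11.6 CPM (SD, n = 4) to 252.2 ± 115.3 CPM (SD, n = 4), with a log2 fold change of 2.64 ± 0.43 (SE, edgeR adjusted p = 0.00286). Its lowest coculture was again replicate 3, at 86.3 CPM. Ptprc, the gene of the leukocyte antigen CD45, fell from 842.4 ± 250.2 CPM to 176.3 ± 121.0 CPM (log2 fold change -2.26 ± 0.71, edgeR adjusted p = 0.0492). This call was lost when any library other than replicate 3 of the cocultures was left out, with edgeR adjusted p from 0.0535 to 0.115. Replicate 3 held the least Ptprc, at 14.8 CPM. Pecam1, the gene of CD31 and expressed by both endothelium and MKs, stood at 13.8, 18.7 and 15.9 CPM in replicates 1, 2 and 4 of the cocultures and at 159.9 CPM in replicate 3. MKs cultured alone held 56.3, 80.3, 68.2 and 58.0 CPM of Pecam1, and the fold change was called only without replicate 3 (log2 fold change -2.05, edgeR adjusted p = 4.82e-07).

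A list of 32 other stromal surface genes was compared in the same way, of which 30 were in the table and 23 were tested. It includes Itgav, which is also in the sort gate. The test called 12 higher and 2 lower, where 13.2% and 7.31% of all genes tested were. The median log2 fold change was 2.64 where that of all genes was 0.034. Without replicate 3 of the cocultures, 21 of 28 were called higher and 3 lower, where 20.6% and 15.4% of all genes were. Cdh11, an adhesion molecule of mesenchymal cells, rose by a log2 fold change of 11.31 ± 0.69 (edgeR adjusted p = 1.85e-05), from at most 1 count in any library of MKs cultured alone. Pdpn (podoplanin) was at 0 to 0.32 CPM in MKs cultured alone and at 24.8, 26.2, 26.3 and 19.0 CPM in replicates 1 to 4 of the cocultures, so that replicate 3 did not stand apart. The neuropilin Nrp2 (6.02 ± 0.37), the aminopeptidase Anpep (5.76 ± 0.80), the scavenger receptor Lrp1 (4.91 ± 0.32), the syndecan Sdc2 (4.10 ± 0.28) and the integrin subunit Itgb5 (3.68 ± 0.25) also rose.

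Both genes of that list that fell encode ectoenzymes. Nt5e, the gene of CD73, stood at 62.0 to 87.5 CPM in MKs cultured alone and at 9.63, 8.05, 1.04 and 5.36 CPM in the cocultures (log2 fold change -3.66 ± 0.60, edgeR adjusted p = 0.00289). Dpp4, the gene of CD26, stood at 46.1 to 55.4 CPM alone and at 5.48, 5.58, 0.209 and 6.57 CPM in cocultures (-3.52 ± 0.78, adjusted p = 0.0124). Among genes that were not tested, Cdh2 (N-cadherin) repeated the arrangement of Pdgfra and Nes, with 107.5, 97.2, 0 and 110.6 CPM in the cocultures. Cd248 (endosialin) also did, at 20.3, 38.9, 0 and 22.3 CPM. Vcam1 stood at 176.2, 117.6 and 133.4 CPM in replicates 1, 2 and 4 of the cocultures, at 0.209 CPM in replicate 3 and at 84.0 to 103.1 CPM in MKs cultured alone, and was not called (log2 fold change 0.20, adjusted p = 0.916).

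**Figure D4:**
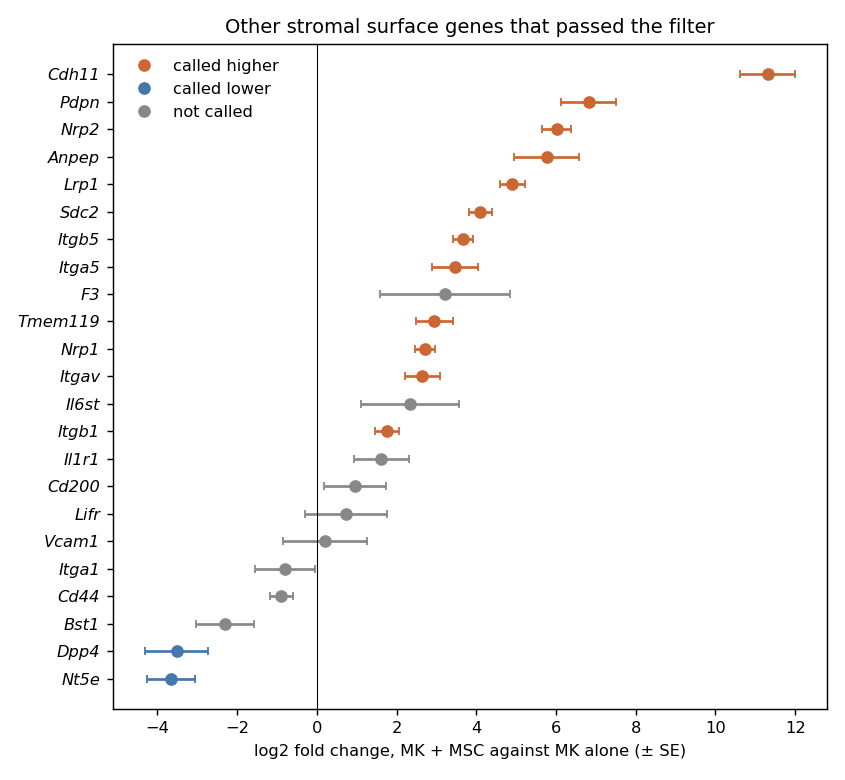
Log2 fold changes with SE (x axis) are shown for the 23 tested genes of the list of other stromal surface genes (y axis), colored by call. Cdh11 is highest at 11.31, and Nt5e and Dpp4 are the 2 genes called lower, at -3.66 and -3.52.

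Ligands and signaling partners of the markers were followed through a list of 38 genes, of which 37 were in the table and 32 were tested. Of these, 7 were called higher and 3 lower, where 13.2% and 7.31% of all genes tested were. The median log2 fold change was 0.51. Without replicate 3 of the cocultures 16 of 35 were called higher and 4 lower, where 20.6% and 15.4% of all genes were. The same shares of all genes apply to the sublists and cell type lists below. For DESeq2, the numbers over all 11722 genes were 1857 called higher and 1259 called lower. Of 9 genes of the PDGF pathway, 1 rose and 1 fell. The ligand gene Pdgfa rose by 7.20 ± 0.89 on the log2 scale (edgeR adjusted p = 0.000584), from 0.440, 0.308, 0 and 0.162 CPM in MKs cultured alone to 21.5, 29.9, 63.4 and 19.2 CPM in cocultures. Here replicate 3 was the highest library, unlike for the receptor Pdgfra. Pik3r1, a regulatory subunit of PI3 kinase, fell by 1.0 on the log2 scale (SE 0.24, adjusted p = 0.0170), a call that was lost without replicate 1 or 3 of MKs cultured alone (adjusted p = 0.0525 and 0.0518) or replicate 2 or 4 of the cocultures (0.0601 and 0.0575).

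The ligand genes Pdgfb, Pdgfc and Pdgfd had log2 fold changes of 1.09, 4.39 and 3.14 (edgeR adjusted p = 0.432, 0.0825 and 0.186) and were not called. Replicate 3 of the cocultures held 0.104 CPM of Pdgfb and 0 of Pdgfc and Pdgfd. Without it all 3 were called higher, at 1.45, 4.88 and 3.69 (adjusted p = 0.00840, 1.25e-06 and 0.000184).

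Of 13 endoglin partners, 12 were tested, 3 rose and none fell. DESeq2 called 3 higher and 1 lower, and 4 of the 12 had an unadjusted p under 0.05 in edgeR. The genes that rose were the ligand Tgfb3 (log2 fold change 6.19 ± 0.70, edgeR adjusted p = 0.000351), the coreceptor betaglycan, Tgfbr3 (2.89 ± 0.65, adjusted p = 0.0130), and the BMP target Id3 (2.62 ± 0.27, adjusted p = 0.000223). Tgfbr3 was highest in replicate 3 of the cocultures, at 97.1 CPM against 19.5 to 23.9 CPM in the others. Acvrl1, the endothelial type I receptor that works with endoglin, had -0.86 (adjusted p = 0.470), and the type II receptor Tgfbr2 had -0.31 (adjusted p = 0.253). On leaving out replicate 3 of the cocultures, 5 of 13 were called higher, the further 2 being the ligand gene Tgfb2 (log2 fold change 7.91) and the BMP receptor gene Bmpr1a (1.02).

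Of 4 tested partners of the leptin receptor, edgeR and DESeq2 each called 0 higher and 0 lower, and 1 had an unadjusted p under 0.05. Leprot, which encodes a protein that limits leptin receptor at the surface, had a log2 fold change of 0.81 ± 0.30 (edgeR adjusted p = 0.0810). Without replicate 3 of the cocultures, Leprot and the feedback inhibitor Socs3 were called higher (1.02 and 2.48) and the kinase gene Jak2 was called lower (-1.08).

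Of 6 tested binding partners of THY1, ALCAM and MCAM, 2 rose and 2 fell. Itgav and the heparan sulfate proteoglycan Sdc4 (log2 fold change 2.12 ± 0.26, edgeR adjusted p = 0.000550) rose. The integrin subunits Itgam (-1.97 ± 0.16, adjusted p = 5.70e-05) and Itgb2 (-1.28 ± 0.21, adjusted p = 0.00283), which pair on myeloid cells, fell. DESeq2 called 2 higher and 3 lower, the further gene being Itgb3 (log2 fold change -1.23, DESeq2 adjusted p = 0.0479, against 0.110 by edgeR). Without replicate 3 of the cocultures edgeR called 4 of 8 higher and 2 lower, with Lama4 and Wnt5a (9.39 and 8.65) as the further genes. Cd6, the ALCAM ligand of T cells, was not tested and reached at most 1.54 CPM. Vim, the vimentin gene whose protein forms filaments together with nestin, rose by 2.62 ± 0.31 on the log2 scale (adjusted p = 0.000507), from 246.1 to 278.2 CPM in MKs cultured alone to 1123 to 2733 CPM in cocultures. Its highest library was replicate 3 of the cocultures, where Nes had 1 count.

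Markers of other cell types moved with the stromal markers, and their part in the results above was not tested. Scores are the mean log2(CPM + 1) of a list. The stromal matrix score rose from 0.511 to 0.946 in MKs cultured alone to 7.60 or more in replicates 1, 2 and 4 of the cocultures and 4.89 in replicate 3, and 5 of its 6 tested genes were called higher (7 of 7 without replicate 3). The score over the 8 stromal surface markers was 2.69 to 2.90 in MKs cultured alone, 4.76 to 5.15 in replicates 1, 2 and 4, and 2.88 in replicate 3. By these 2 mean scores, replicate 3 lay within the range of MKs cultured alone for the 8 surface markers but well above it for the matrix genes. Neither list was uniform. Pdgfrb stood at 38.0 CPM in replicate 3 against at most 9.73 CPM alone, and the matrix gene Postn had 0 counts in that replicate. The score of the other stromal surface genes was 3.22 in replicate 3 and 2.90 to 2.98 in MKs cultured alone. Pericyte and smooth muscle markers scored 1.15 to 1.36 alone and 5.51 to 6.34 in cocultures. The calls were 3 of 3 tested genes higher (Acta2, Tagln and Cnn1), and 4 of 4 without replicate 3 of the cocultures. The further gene, Notch3, stood at 8.03, 11.3, 0 and 7.95 CPM in replicates 1 to 4 of the cocultures and at most 0.331 CPM alone. Rgs5, a pericyte marker that was not tested, reached at most 2.21 CPM. In the cell type lists here and below, genes with a mean under 1 CPM alone could be called higher but not lower. Sparc, Tagln, Cnn1 and Marco are examples.

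Macrophage markers scored 2.12 to 2.67 in MKs cultured alone and 4.95 to 5.53 in cocultures, and 8 of 9 were called higher. Endothelial markers, which bear on Eng, Mcam and Ly6a, scored 2.26 to 2.54 alone and 0.857 to 2.12 in cocultures, with 0 of 4 called higher and 1, Tek, called lower (1 with an unadjusted p under 0.05 in edgeR, and 0 and 1 called by DESeq2). The call of Tek was lost without any 1 library of MKs cultured alone (edgeR adjusted p from 0.0516 to 0.0721). When replicate 3 of the cocultures was left out 5 endothelial markers were tested, with Tek and Kdr called lower and Flt4 called higher (log2 fold changes of Kdr and Flt4 -1.2 and 6.73). Cdh5, which defines endothelium, reached at most 2.61 CPM. Markers of hematopoietic stem and progenitor cells, another source of Ly6a, scored 4.5 to 4.69 alone and 1.54 to 3.52 in cocultures, with 4 of 8 called lower, among them Kit and Cd34 (log2 fold changes -3.62 and -3.47), and Procr called higher. The counts without replicate 3 of the cocultures were 6 of 8 called lower, and Procr still higher.

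Markers of lymphocytes and neutrophils fell where they moved. T and NK cell markers scored 2.83 to 3.33 in MKs cultured alone and 0.752 to 1.6 in cocultures, with 4 of 8 called lower, and 8 of 9 without replicate 3 of the cocultures. The neutrophil list scored 11.8 to 12.3 alone and 8.0 to 8.97 in cocultures, with 8 of 8 called lower with and without that replicate. B cell markers scored 5.27 to 5.52 and 1.88 to 3.87, with 4 of 7 called lower, and 5 of 7 without it. None of these 3 lists had a gene called higher by edgeR or DESeq2, and 5, 8 and 5 of their genes had an unadjusted p under 0.05. The calls of Cd2, Cd3d and Cd79b were lost without any 1 library other than replicate 3 of the cocultures (edgeR adjusted p up to 0.0951, 0.115 and 0.0773). Of the 15 MK and platelet markers 0 were called higher and 1 lower by both tests (Nfe2), 1 had an unadjusted p under 0.05, and the median log2 fold change was -0.37. The call of Nfe2 was lost without replicate 2, 3 or 4 of MKs cultured alone or replicate 2 of the cocultures (edgeR adjusted p from 0.0516 to 0.0575). Leaving out replicate 3 of the cocultures, 4 of the 15 were called lower, namely Nfe2 and also Gata1, Gp1ba and Gp6 (log2 fold changes -1.29, -1.16 and -1.2).

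**Figure D5:**
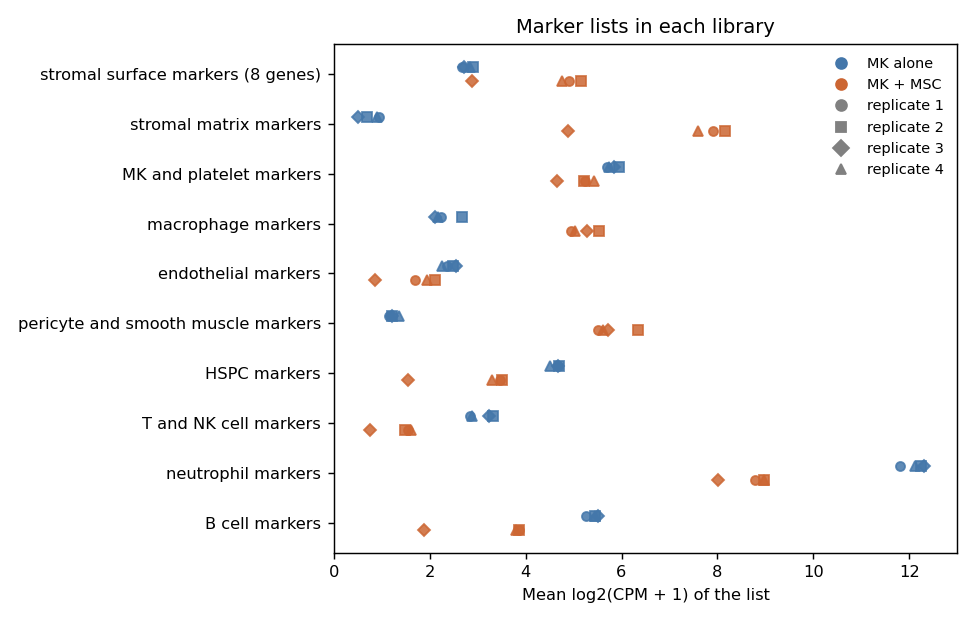
The mean log2(CPM + 1) of each marker list (x axis) is shown for each library, with color for the group and a symbol for the replicate. The stromal surface markers of replicate 3 of the cocultures lie among MKs cultured alone at 2.88, while its stromal matrix markers lie between the groups at 4.89.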

How the data were processed

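Bulk RNA-Seq was analysed in 8 mouse libraries, grouped and numbered by their labels. The authors deposited whole-number counts per gene without normalization. Per the methods, paired-end low-input SMART-Seq reads were filtered and then quantified by kallisto against mm10 transcripts, and the submitters' processing notes also name DESeq2. How counts were summed over transcripts, and whether strand was used, is not given in the sources used here, so genes that overlap or have close copies are uncertain. No gene in the table had a total under 11 counts.

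Counts were tested with the robust quasi-likelihood F test of edgeR 4.0.16 (R 4.3.3) after filterByExpr and TMM scaling, with Benjamini-Hochberg adjustment over all genes tested, on all 8 libraries and without covariates. The methods instead used DESeq2 with a batch term, but the batches are not given in the sources used here, so batch could not be fitted and the replicate number was tried as a block. A call needed an adjusted p up to 0.05, a fold change of 2 or more and a group mean of 1 CPM or more, which are the cutoffs of the methods with CPM replacing TPM. CPM used effective library sizes, standard errors were the log2 fold change divided by the root of F, and scores used a pseudocount of 1 CPM. Ratios of summed counts have exact conditional 95% intervals (scipy 1.17.1, Python 3.11). Alternatives were DESeq2 1.42.0, other scalings and filters, the replicate number as a block, and each library left out. The code was tested on simulated data.

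The markers and lists were chosen with earlier results of these data known. The genes named were the 9 markers, the genes of the sort gate, surface and partner lists, the highest gene of each cell type list, and the 2 genes nearest in profile to each marker called higher. Other cell type markers named (Nfe2, Rgs5, Notch3, Postn, Cdh5, Tagln, Cnn1, Cd34, Procr, Cd2, Cd3d, Cd79b, Gata1, Gp1ba, Gp1bb, Gp5, Gp6, Gp9, Clec1b, Treml1, Tubb1, Kdr, Flt4, Hlf, Klrb1c, Marco and Mrc1) were chosen after their values were seen. GENCODE vM21 (GRCm38, the same build as mm10) gave positions and exon lengths.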

Additional observations from a re-analysis of the deposited data

Results flagged for a closer look

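For each marker and list, the gap between an extreme library and its nearest neighbor was taken as a share of the range of its group of 4. That share passed Dixon's 95% critical value in 8 of 38 groups, where chance alone would give about 1.9, and the library was replicate 3 of the cocultures in 7 of these 8. These measures share genes and libraries, so they are not independent of each other.

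In replicate 3 of the cocultures the log2(CPM + 1) of Pdgfra was 0.273 (0.209 CPM), while the other cocultures held 24.7 to 34.7 CPM. Its list scores stood apart at 3.22 for the other stromal surface genes, 4.89 for stromal matrix markers and 3.78 for the partner genes. Its scores for blood cell markers were also far below those of the other cocultures, at 1.54 for hematopoietic stem and progenitor cells, 0.752 for T and NK cells and 1.88 for B cells. The only such value in MKs cultured alone was a stem and progenitor cell score of 4.5 in replicate 4, which is the lowest of a narrow range. No explanation of these values was tested.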

How the results depend on the processing

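No result reversed its direction. Of the single-marker fold changes with all libraries kept, 56 kept their direction and their side of the threshold and 2 no longer passed, both with the replicate block. Among those with a library left out, 52 did, 10 no longer passed and 2 newly passed (Alcam and Lepr without replicate 3 of the cocultures). The number of markers called higher was 2, against 4 with no filter on low counts and 1 to 5 with a library left out. It was 1 without replicate 1 or 3 of MKs cultured alone, 4 without replicate 2 of MKs cultured alone and 5 without replicate 3 of the cocultures. Leaving out a library, the 7 partner genes called higher became 7 to 16. The 3 called lower became 5 with DESeq2, 1 when scaled to MK and platelet markers and 6 with DESeq2 and the replicate block. Among the other stromal surface genes the 12 called higher ranged up to 21, and no lower than 12, when a library was left out, and the 2 called lower became 1 with at least 10 counts in every library, a filter that removes genes near 0 in any library, and 1 with the replicate block. Over all genes, 1544 higher calls became 1071 to 2530 on leaving out a library. The 857 lower calls became 499 when scaled to the markers and 1392 with DESeq2 and the replicate block, and 539 to 1890 on leaving out a library. With that scaling the median log2 fold change over genes went from 0.034 to 0.33 and the higher share of calls from 64.3% to 81.6%. The cause of these changes was not tested. Depth limits Pdgfra, Nes and Lepr, which held at most 5 counts in any library of MKs cultured alone.

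The labels give both groups the same replicate numbers. Deviations from the group means correlated at 0.37, 0.020, 0.15 and 0.028 across genes for numbers 1 to 4, and replicate 2 of the cocultures correlated best with replicate 1 of MKs cultured alone, so the numbers were not taken to pair the libraries. With the replicate number as a block, 15 of the 65 calls among the markers and lists no longer passed. They include Tgfbr3 (log2 fold change 2.50, edgeR adjusted p = 0.0874) and Dpp4 (-3.92, adjusted p = 0.0519), and the other 12 beside Ly6a are Ptprc and cell type markers (Cd2, Cd3d, Cd79b, Hlf, Klrb1c, Marco, Mrc1, Ms4a1, Nfe2, Nkg7 and Tek). In that fit 1 marker was called higher (Pdgfrb), Ly6a had a log2 fold change of 2.09 (edgeR adjusted p = 0.0908), and Pdgfra with all genes kept had 6.35 (adjusted p = 0.0793).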

Other observations

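The genes whose profile over the 8 libraries lay nearest to that of Pdgfrb were Crim1, a transmembrane protein that binds BMPs, and Rhoj, a small GTPase. The likeness was the Euclidean distance of centered log2(CPM + 1), 0.642 and 0.791, among 8986 genes with a mean of at least 10 CPM. Crim1 stood at 47.1, 45.2, 19.2 and 55.1 CPM in replicates 1 to 4 of the cocultures and at 2.76 to 4.70 CPM in MKs cultured alone. The genes nearest to Ly6a were Ankrd50, at a distance of 0.910, and Parp3, at 0.930. Parp3 stood at 96.8, 86.3, 12.6 and 62.6 CPM in the cocultures and at 7.91 to 12.7 CPM alone, so that replicate 3 lay within the range of MKs cultured alone for it as for Ly6a. Procr, which encodes the endothelial protein C receptor and also marks stem cells and some stromal cells, stood at 39.4, 29.9, 75.4 and 45.6 CPM in the cocultures and at 0.162 to 1.44 CPM in MKs cultured alone.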
